A study of Arabidopsis thaliana with 30 samples.

Results

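The type-A response regulators are a family of 10 Arabidopsis thaliana genes, ARR3 (AT1G59940), ARR4 (AT1G10470), ARR5 (AT3G48100), ARR6 (AT5G62920), ARR7 (AT1G19050), ARR8 (AT2G41310), ARR9 (AT3G57040), ARR15 (AT1G74890), ARR16 (AT2G40670) and ARR17 (AT3G56380). The members were taken by locus code, and all 10 were found among the 32678 genes of the table of mutant and wild type, the 34218 of the table of ZAT lines and the 33602 of the sorted-cell count files. The series profiled RNA from roots of 5-day-old seedlings in 30 libraries, 3 for each of 10 groups. One pair of groups was the pear sextuple mutant and the wild type Col-0, neither of them induced; PEAR genes encode DOF transcription factors of the early phloem, and the labels name neither the alleles nor the genes. The lines pWOL(XVE)::ZAT14-like-TURQ and pWOL(XVE)::ZAT14-TURQ, both in Col-0, carry a zinc finger protein fused to a turquoise fluorophore under an estradiol-inducible promoter. They were given 5 µM estradiol for 10 h or 14 h, or DMSO in a single group per line with no time listed. That group cannot match both times, so elapsed time and induction cannot be fully told apart. No meristems without these transgenes received estradiol, so estradiol and transgene cannot be told apart either. In all of these groups whole root meristems were dissected. The last pair came from plants with pCALS7::H2B-RFP, which marks sieve element nuclei red, and with pNAC086(XVE)::PLT2-3YFP, which on induction makes the stem cell factor PLT2 fused to YFP in maturing sieve elements. They were given 10 µM estradiol for 6 h or DMSO, after which protoplasts were sorted, gated on red and yellow fluorescence with estradiol but on red alone with DMSO. The labels do not say how many independent transgenic lines stand behind each construct, nor that the libraries of a group are separate cultures, so p-values measure the spread between these libraries, which may be technical.

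Cytokinin is bound by the histidine kinase receptors AHK2, AHK3 and AHK4 in endomembranes, and phosphate is passed on through AHP proteins to the nucleus. There it activates the type-B response regulators, which are transcription factors with a DNA-binding domain. Type-A response regulators have the phosphate-receiving domain but no DNA-binding domain; most are transcribed within minutes of cytokinin treatment, and as a family they dampen the pathway that induces them. In roots they are known as readouts of cytokinin signalling, which sets meristem size and the balance of xylem and phloem in the vascular cylinder. ARR7 and ARR15 act redundantly in the stem cell niches of embryo and shoot, and ARR16 and ARR17 are less well known. The promoter named pWOL is that of AHK4 itself, so both ZAT proteins were driven where a cytokinin receptor is transcribed.

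Depth was even enough for all members but the rarest. The sorted-cell libraries held 31426740 to 44837397 counts, and low FPKM values (fragment counts divided by gene length and by library size) placed the meristem libraries at about 17.8 to 26.6 M reads. ARR7 then rested on an estimated 10.4 to 63.6 reads in the libraries of mutant and wild type and on 17.8 to 66.4 in those of the ZAT lines, whereas ARR17 never passed 5.3. The induced transgenes stood at 54.9 FPKM at 10 h and 71.4 FPKM at 14 h for ZAT14-like in its line, where DMSO gave 5.98 FPKM, and at 45.4 and 68.2 FPKM for ZAT14 in its line, where DMSO gave 15.2 FPKM. PLT2 took 2.01 to 7.07% of the counts with estradiol, against 0.000493 to 0.000841% with DMSO. In libraries labelled pear sextuple OBP2 was at 0.180 FPKM, against 6.22 FPKM in Col-0, and PEAR2 was at 0.0802 FPKM, against 2.69 FPKM. TMO6 and HCA2, which belong to the same DOF family, were higher there, at 78.6 FPKM against 12.3 FPKM in Col-0 and at 2.18 FPKM against 0.283 FPKM. The direction of every mutant comparison rests on the label.

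The members sit on chromosomes 1, 2, 3 and 5, and the deposited tables hold no coordinates, so positions are those of the TAIR10.1 annotation. ARR7 spans chr1:6577833-6579314, ARR15 chr1:28131447-28133025, ARR5 chr3:17758427-17760950 and ARR6 chr5:25252007-25254318, all on the minus strand. ARR8 lies at chr2:17221840-17224880, ARR9 at chr3:21109059-21111567, ARR16 at chr2:16969673-16972113 and ARR17 at chr3:20905264-20906397, all on the plus strand. ARR4 lies at chr1:3441988-3444360 and ARR3 at chr1:22065617-22067233, both on the minus strand. Every gene has 5 or 6 exons, and the proteins run from 154 amino acids in ARR17 to 323 in ARR3. The family falls into pairs of close paralogs: the annotated proteins are 79.7% identical between ARR5 and ARR6, 78.1% between ARR16 and ARR17, 70.3% between ARR8 and ARR9, 65.4% between ARR7 and ARR15 and 51.7% between ARR3 and ARR4. The longest stretch of annotated exon sequence shared exactly was 41 bases in the pairs ARR3 and ARR4 and ARR8 and ARR9. It was 17 to 20 bases in the other pairs. The read length is not given in the sources used here. ARR8 and ARR9 overlap antisense RNAs (AT2G09250 and AT3G08825), and the 3′ part of ARR6 overlaps AT5G62910 on the other strand. The labels do not state that strand was used in counting, so reads of such partners cannot be told apart.

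The 250 bases before the annotated start are shown for ARR7, which was higher in one ZAT line and lower in the other, for ARR16, which was listed at 0 in Col-0 but not in the mutant, and for ARR5 and ARR15, which were both lower in 1 comparison. They are written 5′ to 3′ on the gene's strand, from TAIR10.1 at chr1:6579315-6579564 (minus strand), chr2:16969423-16969672 (plus), chr3:17760951-17761200 (minus) and chr1:28133026-28133275 (minus). Capitals mark, on either strand, the core that type-B response regulators are known to bind, which has the form AGATT, the form AGATC, the form GGATT or the form GGATC.
ARR7: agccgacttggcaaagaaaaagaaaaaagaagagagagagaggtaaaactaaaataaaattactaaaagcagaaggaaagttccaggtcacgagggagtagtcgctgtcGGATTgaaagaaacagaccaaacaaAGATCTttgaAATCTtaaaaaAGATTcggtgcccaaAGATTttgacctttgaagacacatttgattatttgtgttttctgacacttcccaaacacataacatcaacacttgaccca
ARR16: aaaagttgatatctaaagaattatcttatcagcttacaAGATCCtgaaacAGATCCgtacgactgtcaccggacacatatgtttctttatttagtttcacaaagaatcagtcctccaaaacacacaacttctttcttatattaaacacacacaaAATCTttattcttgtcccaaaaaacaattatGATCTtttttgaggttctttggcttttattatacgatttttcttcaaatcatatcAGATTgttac
ARR5: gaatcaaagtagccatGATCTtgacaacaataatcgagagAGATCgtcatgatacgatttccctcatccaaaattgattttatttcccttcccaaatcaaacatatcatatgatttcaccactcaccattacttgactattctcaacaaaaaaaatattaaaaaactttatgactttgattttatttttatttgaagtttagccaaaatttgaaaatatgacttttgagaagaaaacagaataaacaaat
ARR15: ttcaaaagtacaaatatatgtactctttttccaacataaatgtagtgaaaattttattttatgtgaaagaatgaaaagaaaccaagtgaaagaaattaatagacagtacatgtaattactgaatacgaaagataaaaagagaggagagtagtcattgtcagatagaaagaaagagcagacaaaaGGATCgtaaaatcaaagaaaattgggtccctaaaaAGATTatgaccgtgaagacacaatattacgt

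ARR16 held 7 such matches and ARR7 held 6, overlapping matches included, ARR6 held 4, and each of the other 7 members held 2. Across the windows of 27443 protein-coding genes the median was 2 (quartiles 1 to 3), and 85.2% of windows held at least 1. By single motif, AGATT stood in 7 of the 10 members and in 63.7% of all windows, AGATC in 5 and in 26.6%, GGATT in 6 and in 38.0%, and GGATC in 2 and in 18.2%. The longer form AAGATCTT was found in ARR7 alone among the members and in 0.809% of all windows, AAGATTTT in 4 members and in 5.98%, and AAGATACG in no member and in 0.641%. These counts describe letters in a window of fixed length and are not binding sites.

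In wild-type meristems the family spanned a wide range of FPKM, which is scaled by gene length and so allows levels of different genes to be set side by side. ARR4 was highest in Col-0, at 53.1, 58.0 and 47.8 FPKM. ARR8 (37.3 ± 4.40 FPKM), ARR3 (27.7 ± 9.08 FPKM) and ARR5 (27.0 ± 4.84 FPKM; SD, n = 3 each) came next, with ranges that overlapped from neighbour to neighbour. ARR6, ARR9, ARR15 and ARR7 then followed without overlap at 17.8, 13.7, 5.56 and 2.29 FPKM, ARR17 averaged 0.234 FPKM and ARR16 was listed at 0 in all 3 libraries. The ZAT lines with DMSO, run as a separate table, had ARR4 and ARR8 on top as well, at 45.0 ± 2.20 and 39.7 ± 0.814 FPKM in the ZAT14-like line. In all 18 ZAT libraries ARR7, ARR15, ARR16 and ARR17 stayed at or below 3.41 FPKM, and no other member went below 3.95 FPKM.

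**Figure D1:**
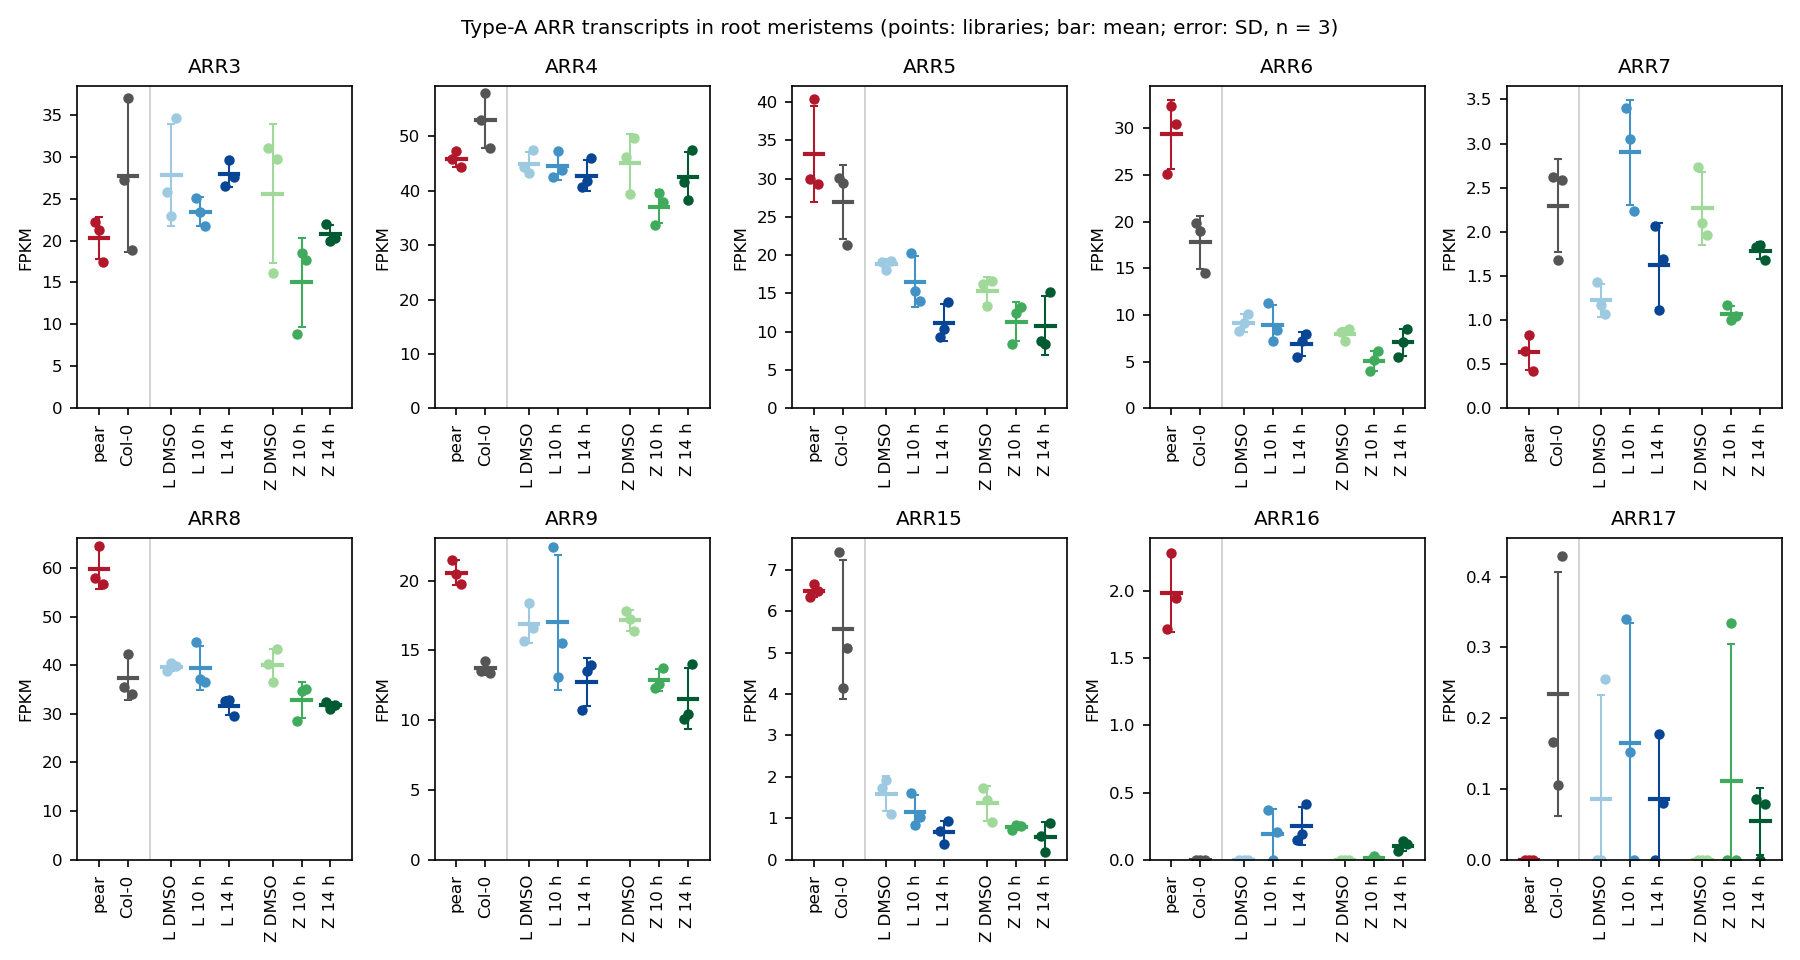
FPKM of each type-A response regulator in every meristem library, by group, with an axis from 0 for each gene (L, ZAT14-like line; Z, ZAT14 line). Points are libraries, bars are means and error bars are SD; ARR4 and ARR8 have the highest means in all 8 groups, and ARR16 and ARR17 stay at or below 2.28 FPKM.

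The comparison of the pear sextuple mutant with Col-0 asked how meristems of a mutant in DOF genes differ from wild type. The family split: ARR6, ARR8 and ARR9 were higher in the mutant, ARR7 was lower, and ARR3, ARR4, ARR5 and ARR15 did not pass the test. In the fit over the whole table (limma on log2(FPKM + 1), with Benjamini-Hochberg adjusted p under 0.05 as the threshold throughout) 9 members were tested. ARR7 and ARR16 passed the filter on low values through 1 group alone and therefore had to differ; of the other 7 members, 3 were called. Of all 17062 genes tested 63.2% were called, so nothing particular to the family is read from its count. Over all 9 the median log2 difference was 0.29, against 0.21 over all genes tested, as a description.

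ARR8, a repressor of cytokinin responses in roots, was at 58.0, 64.5 and 56.7 FPKM in mutant libraries, against 35.4, 42.3 and 34.2 FPKM in Col-0. The groups did not overlap, and the log2 difference was 0.67 ± 0.0955 (SE; limma adjusted p = 0.000451). Its paralog ARR9 showed the same picture at a lower level, with 21.5, 20.4 and 19.8 FPKM in the mutant, against 13.6, 14.2 and 13.4 FPKM in Col-0. The spread within each group was small beside the gap, and the log2 difference was 0.55 ± 0.0716 (limma adjusted p = 0.000273). ARR6 stood at 25.2, 32.4 and 30.5 FPKM in the mutant, against 19.8, 19.0 and 14.5 FPKM in Col-0. The log2 difference was 0.70 ± 0.135 (limma adjusted p = 0.00227). These 3 calls held in all 10 alternative analyses of that comparison. HCA2, itself higher in the mutant, begins 2533 bases beyond the 5′ end of ARR6. It is not the nearest gene on that side, which is AT5G62930, 502 bases from ARR6. Whether the mutant carries an insertion at HCA2 is not given in the sources used here. The part of such an insertion in the level of ARR6 was not tested.

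ARR7 went the other way. It was at 0.650, 0.830 and 0.428 FPKM in the mutant, all below 1 FPKM, against 2.62, 1.69 and 2.58 FPKM in Col-0. On the log2 scale it fell by 1.00 ± 0.165 (limma adjusted p = 0.000944), on a scale whose added 1 FPKM understates changes of genes this low. The filter asked for 1 FPKM in at least 3 libraries, which ARR7 reached through Col-0 alone, so a gene like it that passed had to differ and the call by itself carries little weight. With no filter the log2 difference was the same and the limma adjusted p was 0.00181. Over the 7 alternatives in which ARR7 could be tested the adjusted p ran from 0.000519 to 0.00504. All of these but the one with no filter kept the filter, so that range carries the same limit and adds no weight. Its close paralog ARR15 was at 6.34, 6.65 and 6.48 FPKM in the mutant, against 7.42, 4.15 and 5.12 FPKM in Col-0. The mutant libraries lay within the range of Col-0, and the test was not passed (log2 difference 0.22 ± 0.166, limma adjusted p = 0.272).

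ARR16 had 1.72, 2.28 and 1.94 FPKM in the mutant and was listed at 0 in all 3 Col-0 libraries. It passed the filter only through the mutant libraries and therefore had to differ, so no fold is given. ARR17, its paralog, was listed at 0 in the 3 mutant libraries, against 0.166, 0.105 and 0.430 FPKM in Col-0, and was too low to be tested. The annotated exons of the pair share at most 20 bases in an exact run. An estimated 104.3 reads or fewer stood behind any value of ARR16 in that table.

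The remaining members did not pass the test. ARR4, which interacts with the photoreceptor phytochrome B, was at 45.9, 47.4 and 44.4 FPKM in the mutant, against 53.1, 58.0 and 47.8 FPKM in Col-0. These groups did not overlap either, yet the log2 difference of -0.20 ± 0.0821 missed the threshold (limma adjusted p = 0.0625). ARR3 was at 22.3, 21.2 and 17.5 FPKM in the mutant, against 27.2, 37.0 and 18.9 FPKM in Col-0 (log2 difference -0.39 ± 0.211, limma adjusted p = 0.142). ARR5, long used as a cytokinin reporter, was at 29.9, 40.4 and 29.3 FPKM in the mutant, against 30.0, 29.5 and 21.4 FPKM in Col-0 (log2 difference 0.29 ± 0.160, limma adjusted p = 0.142). Both pairs of groups overlapped. Without Col-0 replicate 4 the calls of ARR3 and ARR4 were gained (limma adjusted p = 0.00599 and 0.0123, over ranges of 0.00599 to 0.431 and 0.00189 to 0.179 in the alternatives), and without Col-0 replicate 1 that of ARR15 (0.0161, over 0.0161 to 0.894).

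**Figure D2:**
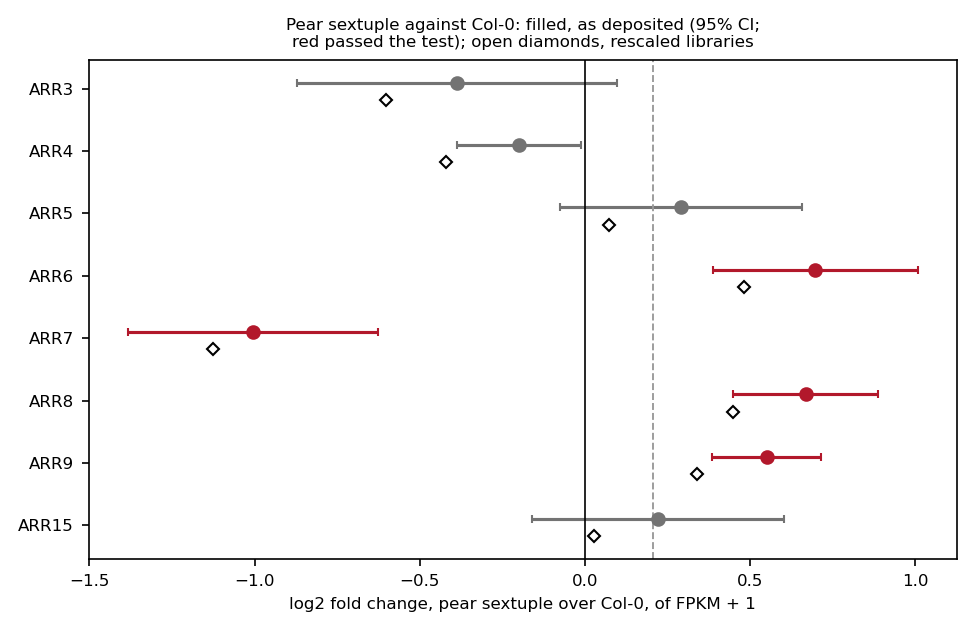
Log2 difference, pear sextuple minus Col-0, of log2(FPKM + 1) for the members with values in both groups that were tested, with the 95% interval from limma as deposited (filled; red, past the threshold) and the value after rescaling (open diamonds); the dashed line is the median of all genes. ARR6, ARR8 and ARR9 lie above 0 and ARR7 below it under both scalings.

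Scaling mattered in that comparison, since the median gene stood 0.21 above 0 on the log2 scale and 44.6% of genes were called higher but 18.6% lower. After rescaling every library by median ratios, the calls over all genes were 4939 higher and 5054 lower. ARR6, ARR8 and ARR9 stayed higher, by 0.48, 0.45 and 0.34 on the log2 scale, ARR7 stayed lower, at -1.12, and ARR3 and ARR4 were then called lower, at -0.60 and -0.42 (limma adjusted p = 0.0313 and 0.00189). The family's summed level was 207 to 236 FPKM in the mutant as deposited, against 158 to 206 FPKM in Col-0. Rescaled, it was 193.5 to 216.0 FPKM in the mutant, against 172.0 to 219.9 FPKM in Col-0, so that the groups overlapped. The makeup of the sum, which no scaling of whole libraries can change, differed between the groups. ARR8 made up 27.4% of it in the mutant, against 20.3% in Col-0. ARR4 made up 21.1% in the mutant, against 28.8% in Col-0. The highest member was thus ARR8 in the mutant libraries and ARR4 in those of Col-0.

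All 3 cytokinin receptors were higher in the mutant: AHK2 at 7.43 FPKM against 2.75 FPKM in Col-0 (log2 difference 1.17, limma adjusted p = 5.05e-05), AHK3 at 7.87 against 3.56 FPKM (0.96, 0.000312) and AHK4 at 28.4 against 16.0 FPKM (0.81, 0.00112). They stayed higher after rescaling, by 0.99, 0.78 and 0.59. Among the phosphotransfer proteins AHP5 and AHP2 were higher, and among the type-B regulators ARR1 (log2 difference 0.69), ARR12 and ARR2 were, while after rescaling ARR1 alone stayed higher and ARR10 and ARR14 were called lower. LOG3 and LOG4, which activate cytokinin, were higher by 1.00 and 0.37 on the log2 scale. PUP14, a cytokinin importer, was higher by 1.05, and the degrading oxidase CKX5 by 0.38. The response factor CRF1 was lower, at 0.98 FPKM in the mutant, against 3.82 FPKM in Col-0, whereas CRF2, CRF4 and CRF5 were higher. Of the 56 other cytokinin genes listed 28 were tested, of which 15 were higher and 1 was lower as deposited. That share of 57.1% lies below the 63.2% of all genes. After rescaling 9 of the 28 were higher and 4 lower, beside 4939 higher and 5054 lower of 17065 genes, so the list as a whole did not stand above the background.

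Markers of other cell types moved with these genes. The summed level of 3 stem cell niche markers was 79.7 to 90.9 FPKM in the mutant, against 30.7 to 40.3 FPKM in Col-0. That of 3 root cap markers was 179 to 204 FPKM in the mutant, against 72.4 to 86.7 FPKM in Col-0. All 6 genes were called higher, beside 44.6% of all genes tested. The 9 sieve element markers summed to 10.3 to 10.8 FPKM in the mutant, against 14.0 to 17.7 FPKM in Col-0. Of the 6 tested 4 were lower and 1 was higher, beside 18.6% of all genes lower and 44.6% higher. SEOA and SEOR1 stayed under 1 FPKM, and no marker was at 0 in every library. The part of tissue makeup in the levels of the response regulators was not tested. In bulk samples, fewer cells of a type and less RNA per cell cannot be told apart.

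Induction of ZAT14-like and of ZAT14 asked what each zinc finger protein changes in the meristem over 10 h and 14 h. One member stood out by moving in opposite directions: ARR7 was higher at 10 h in the ZAT14-like line and lower at 10 h in the ZAT14 line, each against its own DMSO libraries. With ZAT14-like the other calls came at 14 h, when ARR5, ARR8 and ARR15 were lower. In the ZAT14 line no member passed the test at 14 h. Their log2 differences at 14 h were close in the ZAT14-like and ZAT14 lines, at -0.32 in both for ARR8 and at -0.64 and -0.61 for ARR15. For ARR5 they were -0.72 and -0.51. The direct test between the lines called no member at 14 h, so these calls do not set the lines apart. The filter was met by 8 members; ARR16 and ARR17 fell below it. The times of a line share their DMSO libraries, and the comparisons of 14 h with 10 h share libraries with both.

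In the ZAT14-like line ARR7 was at 1.43, 1.17 and 1.07 FPKM with DMSO, at 3.41, 3.05 and 2.24 FPKM at 10 h, and at 2.07, 1.11 and 1.69 FPKM at 14 h. The 10 h libraries lay above all others of the line, while those of 14 h overlapped the DMSO libraries. The log2 difference from DMSO was 0.80 ± 0.141 at 10 h (limma adjusted p = 0.00195) and 0.22 at 14 h (0.317). It was the 1 member called of 8 at 10 h, where 13.8% of 17157 genes were called, and it was called in all 12 alternatives (0.71 to 1.17 on the log2 scale, adjusted p = 0.00088 to 0.0394). Between 14 h and 10 h its log2 difference was -0.58 (limma adjusted p = 0.0185), a call that was lost without 10 h replicate 1 (0.0723) and without 14 h replicate 3 (0.0991), over a range of 0.00786 to 0.174 in the alternatives. The other 7 tested members overlapped their DMSO libraries at 10 h (limma adjusted p = 0.361 to 0.940). The share of genes called depended on single libraries: at 10 h in the ZAT14-like line the 2365 calls became 1552 without 10 h replicate 1, 3731 without 10 h replicate 4, 1203 without DMSO replicate 1 and 1077 without DMSO replicate 2, and 406 when the 2 groups were fitted alone.

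In the ZAT14 line ARR7 was at 2.74, 2.09 and 1.96 FPKM with DMSO, at 1.17, 0.998 and 1.05 FPKM at 10 h, and at 1.83, 1.85 and 1.68 FPKM at 14 h. All induced libraries lay below those with DMSO, and the 10 h libraries lay lowest. The log2 difference at 10 h was -0.65 ± 0.141 (limma adjusted p = 0.0183), again the 1 member called of 8, where 3.21% of genes were called. The call was lost without 10 h replicate 3 (adjusted p = 0.0864), 10 h replicate 4 (0.0519) or DMSO replicate 1 (0.0813), and also when the 2 groups were fitted alone (0.0732) and without the 3 libraries numbered 2, an alternative chosen after seeing the data (0.0738). It passed in the other 7 of 12 alternatives, and the adjusted p ran from 0.0150 to 0.0864 over all of them. The 551 genes called in that comparison became 183 without 10 h replicate 3, 362 without DMSO replicate 1 and 150 without DMSO replicate 4. From 10 h to 14 h no member was called in that line, where 5.03% of genes were; ARR7 had a log2 difference of 0.43 (limma adjusted p = 0.0981).

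The difference between the responses of the lines at 10 h was tested directly, as ZAT14-like minus ZAT14. For ARR7 it was 1.45 ± 0.200 on the log2 scale (95% interval 1.03 to 1.87, limma adjusted p = 0.00585), and no other member was called. Only 0.181% of all genes, 31 of 17157, were called in that test. The lines also stood apart before induction: with DMSO the ZAT14-like line had ARR7 at 1.07 to 1.43 FPKM and the ZAT14 line at 1.96 to 2.74 FPKM, without overlap. That difference of lines was not called (log2 difference -0.55 ± 0.141, unadjusted p = 0.00127, limma adjusted p = 0.640), and neither was any other member, where 0.0991% of genes were called. At 10 h the order was turned round, with 2.24 to 3.41 FPKM in the ZAT14-like line and 0.998 to 1.17 FPKM in the ZAT14 line. At 14 h the difference of responses was 0.45 for ARR7 (limma adjusted p = 0.780) and 0 members were called, none of the 8 being called under any alternative of that test; over all genes 0.361% were. Both DMSO groups and the ZAT14 10 h group include a library numbered 2 and the other groups do not; without those 3 libraries the difference at 10 h was 1.50 but missed the threshold (limma adjusted p = 0.0570).

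**Figure D3:**
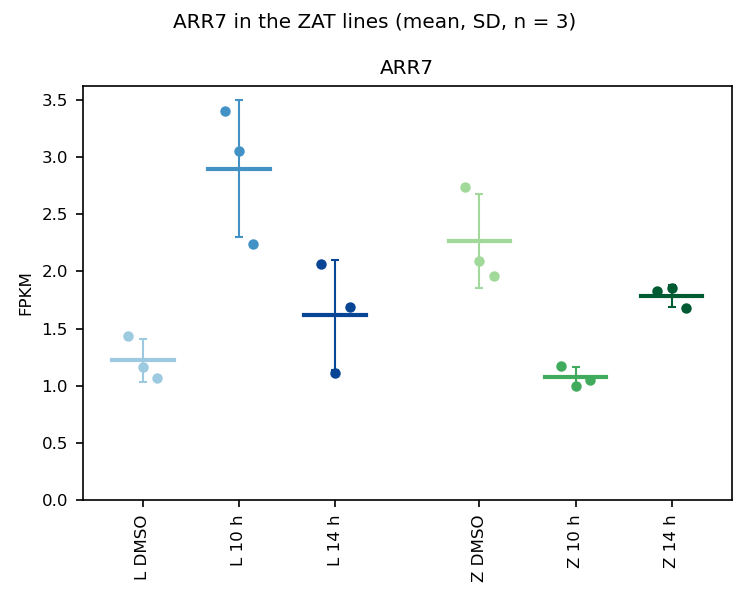
ARR7 in FPKM in each library of the ZAT14-like and ZAT14 lines with DMSO and after 10 h and 14 h of estradiol (L, ZAT14-like line; Z, ZAT14 line); points are libraries, bars are means and error bars are SD. At 10 h the ZAT14-like libraries reach 2.24 to 3.41 FPKM and the ZAT14 libraries lie at 0.998 to 1.17 FPKM.

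At 14 h 3 members were lower in the ZAT14-like line, where 12.4% of all genes were called. ARR5 was at 19.2, 18.0 and 19.2 FPKM with DMSO, at 20.3, 15.3 and 14.0 FPKM at 10 h and at 9.28, 10.3 and 13.9 FPKM at 14 h, with a log2 difference at 14 h of -0.72 ± 0.203 (limma adjusted p = 0.0289). ARR8 was at 38.8, 40.4 and 39.9 FPKM with DMSO, at 44.7, 37.1 and 36.5 FPKM at 10 h and at 32.6, 32.8 and 29.5 FPKM at 14 h, with a log2 difference of -0.32 ± 0.0881 (0.0258). ARR15 was at 1.74, 1.93 and 1.11 FPKM with DMSO, at 1.60, 0.836 and 1.04 FPKM at 10 h and at 0.688, 0.370 and 0.927 FPKM at 14 h, with a log2 difference of -0.64 ± 0.194 (0.0397). In each of the 3 genes the 14 h libraries all lay below those with DMSO. These calls sat close to the threshold. That of ARR5 was lost on leaving out any of the 6 libraries except 14 h replicate 4, with adjusted p between 0.0634 and 0.112. That of ARR8 was lost on leaving out any except 14 h replicate 1, with adjusted p between 0.0565 and 0.0964. That of ARR15 was lost without DMSO replicate 1 (0.122), DMSO replicate 2 (0.174), 14 h replicate 1 (0.0803) or 14 h replicate 3 (0.189). Over all alternatives the adjusted p ran from 0.00768 to 0.112 for ARR5, from 0.00792 to 0.0964 for ARR8 and from 0.0241 to 0.213 for ARR15.

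The members not called at 14 h in the ZAT14-like line included ARR9, at 15.7, 18.4 and 16.6 FPKM with DMSO and 10.7, 13.5 and 14.0 FPKM at 14 h, and ARR6, at 8.24, 9.10 and 10.1 FPKM with DMSO and 5.44, 7.25 and 7.98 FPKM at 14 h. Neither pair of groups overlapped, yet the log2 differences of -0.39 and -0.37 missed the threshold (limma adjusted p = 0.109 and 0.169). With the 2 groups fitted alone ARR9 was called as well (0.0363, over 0.0363 to 0.363). ARR3 and ARR4 overlapped between DMSO and 14 h in that line. Between 14 h and 10 h, where 8.66% of genes were called, ARR8 was called beside ARR7, with a log2 difference of -0.30 (limma adjusted p = 0.0425). That call was lost without 10 h replicate 1 (0.149), 14 h replicate 1 (0.0742), 14 h replicate 3 (0.0844) or 14 h replicate 4 (0.153), over a range of 0.0276 to 0.207. Without 10 h replicate 3 ARR9 was called as well (0.0415, over 0.0415 to 0.512).

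In the ZAT14 line the 8 tested members were lower on average after induction, mostly without passing the test. At 10 h all 8 log2 differences were negative, with a median of -0.41 against 0.02 over all genes tested. ARR3 was at 31.0, 16.1 and 29.7 FPKM with DMSO and at 8.86, 18.5 and 17.7 FPKM at 10 h, where the lowest value of each group came from the libraries numbered 2 (log2 difference -0.74, limma adjusted p = 0.115). ARR6 was at 8.21, 7.23 and 8.45 FPKM with DMSO and at 3.95, 5.19 and 6.13 FPKM at 10 h (-0.57, 0.0886). ARR5, ARR8, ARR9 and ARR15 lay below their DMSO libraries without overlap (limma adjusted p = 0.103 to 0.371), and ARR4 overlapped (0.137). The share of all genes without overlap is not given here. All members were measured in the same libraries, so no family result is read from these counts. ARR3 passed without the 3 libraries numbered 2 (0.00822). Without DMSO replicate 2 ARR3 and ARR4 were also called (adjusted p = 0.0183 and 0.0461, over ranges of 0.00674 to 0.418 and 0.0461 to 0.508). At 14 h ARR8 was at 32.5, 31.0 and 31.7 FPKM, below the 36.5 to 43.3 FPKM with DMSO, and ARR9 was at 10.1, 10.4 and 14.0 FPKM, below 16.4 to 17.8 FPKM. Their log2 differences of -0.32 and -0.55 just missed the threshold (limma adjusted p = 0.0502 and 0.0543). With 0 of 8 members called at 14 h, 4.28% of all genes were called. An unadjusted limma p under 0.05 was reached by 4 members, ARR5, ARR8, ARR9 and ARR15. The share of all genes at that unadjusted level is not given here. ARR3, ARR4 and ARR6 overlapped their DMSO libraries (limma adjusted p = 0.717, 0.749 and 0.717). Without the 3 libraries numbered 2 ARR3 passed (0.0216, over 0.0216 to 0.933). Without 14 h replicate 4 ARR5 and ARR9 were called (adjusted p = 0.0455 and 0.0367, over ranges of 0.0455 to 0.535 and 0.0290 to 0.210).

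**Figure D4:**
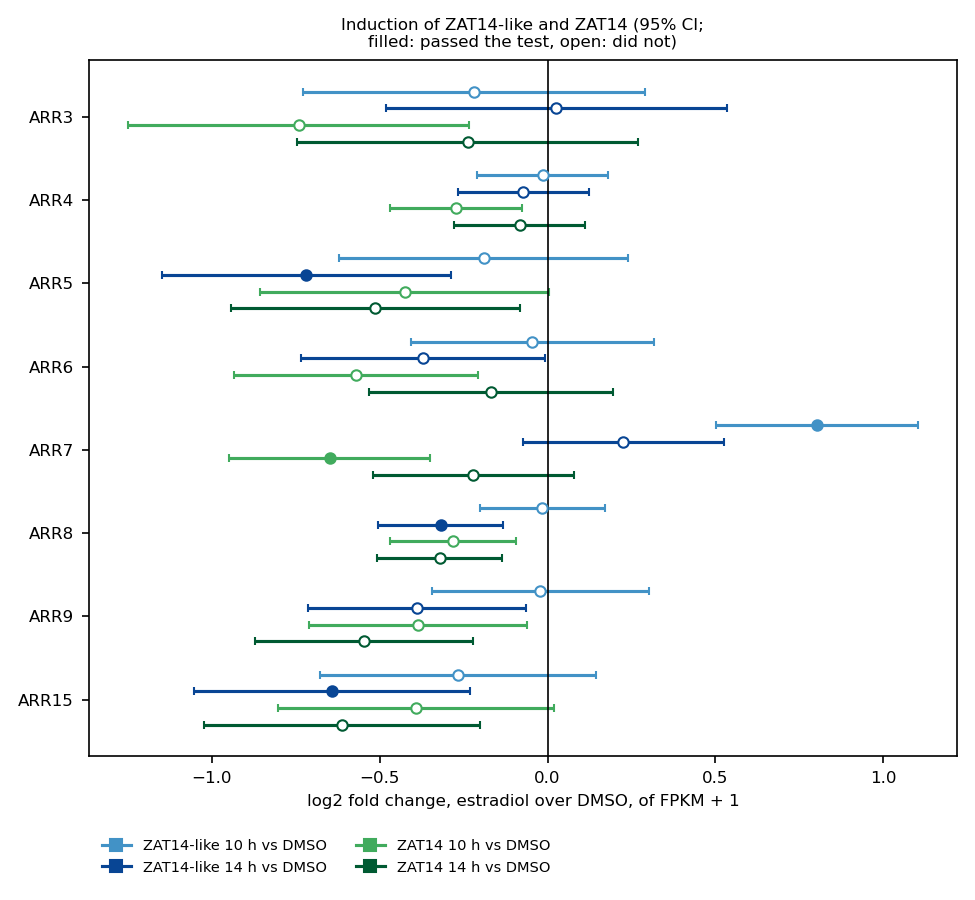
Log2 difference from DMSO at 10 h and 14 h for the 8 tested members in the ZAT14-like and ZAT14 lines, with 95% intervals from limma on log2(FPKM + 1). Filled symbols passed the threshold; ARR7 lies at 0.80 in the ZAT14-like line and at -0.65 in the ZAT14 line at 10 h.

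Summed over the family, FPKM in the ZAT14-like line was 155 to 170 with DMSO, 143 to 172 at 10 h and 128 to 142 at 14 h. In the ZAT14 line it was 133 to 167 with DMSO, 97.7 to 126 at 10 h and 117 to 140 at 14 h. The 14 h libraries of the ZAT14-like line and the 10 h libraries of the ZAT14 line lay below their DMSO libraries. ARR16 was listed at 0 in all 6 DMSO libraries. After induction it reached at most 0.412 FPKM in the ZAT14-like line and 0.138 FPKM in the ZAT14 line, an estimated 18.6 reads or fewer, and it was listed at 0 in some induced libraries too. ARR17 never passed 0.341 FPKM.

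Of 31 other cytokinin genes tested, 5 were higher and 1 lower at 10 h in the ZAT14-like line, 19.4% beside 13.8% of all genes. Higher were the degrading oxidases CKX7 (log2 difference 0.95, limma adjusted p = 6.35e-05) and CKX3 (0.84, 0.00227). So were LOG7 (0.38, 0.0259) and LOG3 (0.60, 0.0309), which activate cytokinin, and PUP14 (0.64, 0.00127). From 10 h to 14 h LOG7 was lower in that line (-0.67, limma adjusted p = 0.00118). At 14 h both oxidases and PUP14 were higher, and no gene was lower, 9.68% beside 12.4% of all genes. In the ZAT14 line PUP14 was higher at both times, CRF2 was higher at 14 h, and AHP6, a pseudo-phosphotransfer protein that inhibits cytokinin signalling beside the xylem, was lower at 10 h (1.99 FPKM, against 4.80 FPKM with DMSO; log2 difference -0.95, limma adjusted p = 0.000619). That is 6.45% of the 31 genes at each time, beside 3.21% and 4.28% of all genes. AHP6 was lower at 10 h in the ZAT14-like line too (2.40 FPKM, against 3.60 FPKM with DMSO; -0.43, 0.0279), and from 10 h to 14 h it was higher in both lines. From 10 h to 14 h CRF2 was also higher in both lines and CRF1 in the ZAT14-like line, while AHP5 was lower in the ZAT14 line. Calls between these times made up 12.9% of the 31 in the ZAT14-like line, beside 8.66% of all genes. In the ZAT14 line they made up 9.68%, beside 5.03%. None of the 31 was called in the differences of responses. AHK4, whose promoter drove the transgenes, was not called in any comparison of these lines.

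Xylem markers moved beside these members. The 6 markers summed to 5.52 to 11.7 FPKM with DMSO, 22.6 to 25.7 FPKM at 10 h and 42.2 to 57.3 FPKM at 14 h in the ZAT14-like line, where 2 and then 4 of the 4 tested were higher. In the ZAT14 line they summed to 4.83 to 12.2, 11.1 to 17.4 and 23.2 to 24.3 FPKM, with 1 and then 3 of the 4 higher. Of all genes tested, 8.96% at 10 h and 7.89% at 14 h were called higher in the ZAT14-like line. The shares were 1.96% and 2.85% in the ZAT14 line. The 3 stem cell niche markers summed to 21.2 to 23.7 FPKM with DMSO, 39.1 to 55.8 FPKM at 10 h and 42.1 to 45.2 FPKM at 14 h in the ZAT14-like line. In the ZAT14 line they summed to 21.8 to 23.6, 27.5 to 33.6 and 31.3 to 37.7 FPKM. WOX5 was the 1 gene of the 3 called, and PLT1 and PLT2 were not. At 10 h WOX5 averaged 23.2 FPKM against 0.605 FPKM with DMSO in the ZAT14-like line, and 7.27 against 0.693 FPKM in the ZAT14 line. SUC2, SEOA, SEOR1 and VND6 stayed under 1 FPKM, and no marker was at 0 in every library. The part of these cell types in the levels of the response regulators was not tested.

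The sorted cells addressed what PLT2 changes in cells of the sieve element lineage. ARR4 was the highest member per kilobase in the 3 DMSO libraries, and its mean was lower with estradiol, but no member was called. Among the 9 tested by edgeR's quasi-likelihood test on counts, 2 had an unadjusted p under 0.05. The share of all genes at that unadjusted level is not given here. At the adjusted threshold 0 of the 9 were called, against 0.657% of all 24673 genes. That background of 162 genes rested on single libraries: it was 1833 without DMSO replicate 1, 0 without DMSO replicate 2, 1 without DMSO replicate 4 and 3 to 6 without an estradiol library, and DESeq2 called 3070. ARR15, with 0 to 11 counts a library, was too low to be tested.

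ARR4 had 75.9, 34.7 and 100.8 CPM (counts scaled to a common library size by TMM) with estradiol, against 212.6, 418.3 and 383.9 CPM with DMSO. The groups did not overlap, and 1869 to 5210 counts stood behind the estradiol values and 9189 to 10513 behind those with DMSO, so depth did not limit it. The log2 difference was -2.26 ± 0.447 (95% interval -3.29 to -1.24, unadjusted p = 0.000862) and just missed the threshold (edgeR adjusted p = 0.0579). It passed with DESeq2 (adjusted p = 0.000106), and over the 11 alternatives the log2 difference ran from -2.61 to -1.70 and the adjusted p from 0.000106 to 0.208. Without DMSO replicate 1 it was called by edgeR as well (0.0299). Per kilobase of exon ARR4 stood at 33.6 ± 15.9 CPM with estradiol and 161 ± 52.5 CPM with DMSO (SD, n = 3 each). In estradiol replicate 2 it stood at 16.5 CPM per kilobase, below ARR8 at 19.2. It made up 36.1% of the family's summed CPM per kilobase with estradiol (24.9 to 46.4% over libraries) and 65.6% with DMSO (53.0 to 73.3%).

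The other members differed less beside their spread. Per kilobase ARR8 averaged 17.9 CPM with estradiol and 22.1 CPM with DMSO. ARR9 was at 33.3, 27.1 and 32.9 CPM with estradiol, against 45.0, 45.9 and 35.0 CPM with DMSO; the groups did not overlap, but the test was not passed (log2 difference -0.43 ± 0.228, 95% interval -0.96 to 0.09, edgeR adjusted p = 0.327). ARR3 was at 12.0, 5.59 and 9.19 CPM with estradiol and at 32.2, 11.0 and 16.4 CPM with DMSO; the groups overlapped (log2 difference -1.16, edgeR unadjusted p = 0.0345, adjusted p = 0.201). ARR5 and ARR6 overlapped between groups as well, at 6.93 to 11.4 CPM against 3.46 to 16.2 CPM with DMSO and at 6.28 to 9.62 CPM against 7.77 to 11.6 CPM. ARR7 was rare, with 33, 29 and 13 counts with estradiol and 21, 3 and 48 with DMSO. ARR16 had 42, 44 and 31 counts with estradiol and 9, 4 and 29 with DMSO, which overlapped once scaled, at 0.890 CPM or less with estradiol and 0.178 to 1.06 CPM with DMSO. ARR17 had 54, 69 and 64 counts with estradiol and 58, 46 and 172 with DMSO, or 1.14 to 1.28 CPM and 1.34 to 6.28 CPM without overlap, and its interval was wide (log2 difference -1.40, 95% interval -3.06 to 0.27, edgeR adjusted p = 0.322). ARR17 was detected in every sorted-cell library. In meristems it was listed at 0 in 3 of 3 mutant and 3 of 3 ZAT14 DMSO libraries, and never passed 0.430 FPKM. Sorted-cell and meristem libraries differ in depth and processing, so detection cannot be compared directly.

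**Figure D5:**
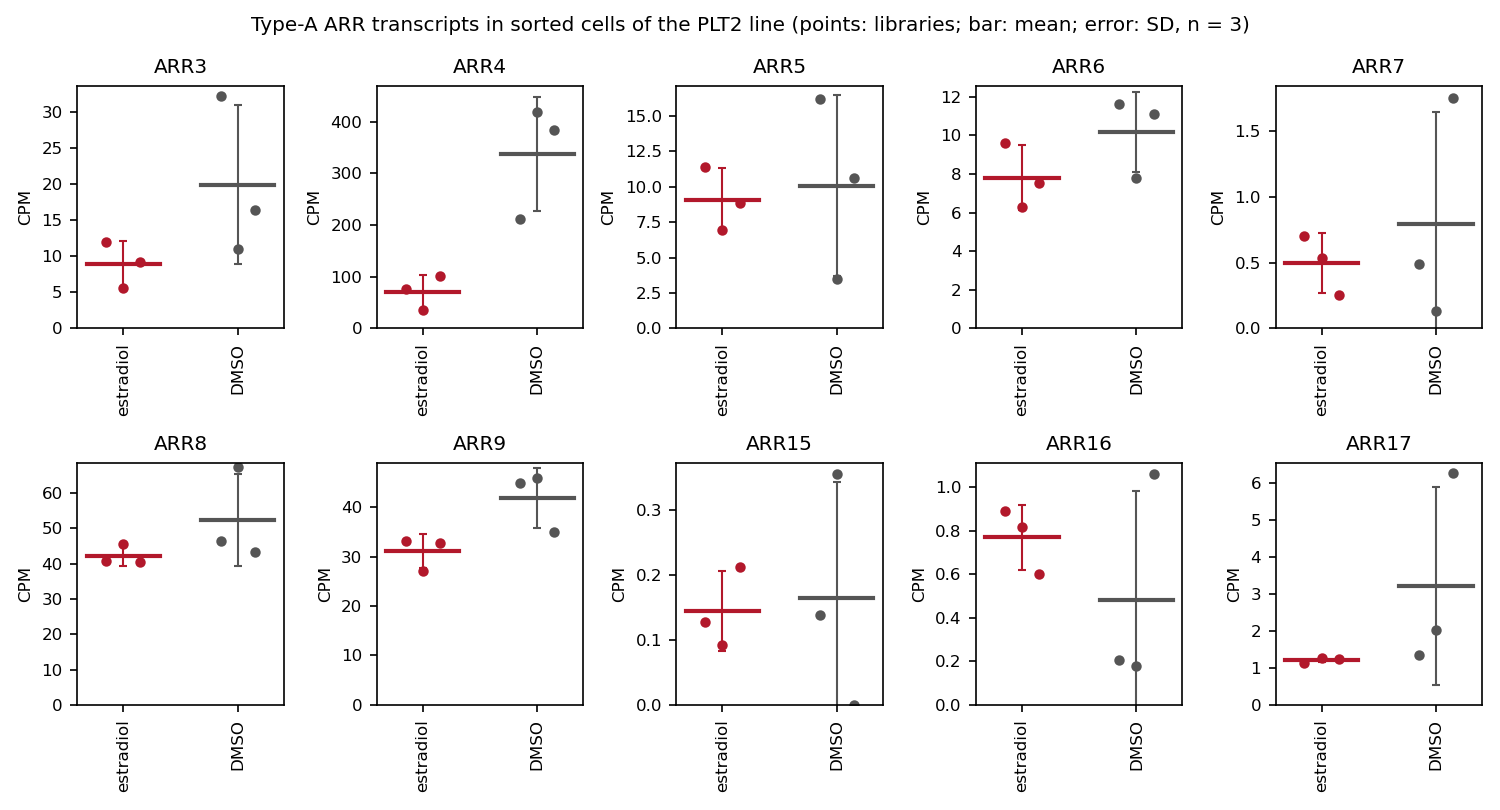
CPM of each type-A response regulator in sorted cells, per library, with estradiol left of DMSO and an axis from 0 for each gene (bars, mean; error bars, SD). ARR4 lies at 34.7 to 100.8 CPM with estradiol and at 212.6 to 418.3 CPM with DMSO; error bars that would run below 0 are clipped there.

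Normalisation differed between the sorted-cell groups. TMM factors were 1.15 to 1.28 with estradiol and 0.717 to 1.01 with DMSO, and with library totals alone ARR5, ARR6, ARR8 and ARR9 changed sign, to log2 differences of 0.27, 0.12, 0.25 and 0.09. The 9 sieve element markers summed to 3724 to 7755 CPM with estradiol and 8571 to 18508 CPM with DMSO, with SEOR1 called lower. In DMSO replicate 2 21340 genes were detected, against 27617 and 28426 in the other DMSO libraries and 29277 to 30143 with estradiol. The root cap markers summed to 17.8 to 84.2 CPM with estradiol and 12.3 to 96.5 CPM with DMSO. The part of this unevenness in the levels of the members was not tested. The gates of the groups also differed, and estradiol, gate and PLT2 cannot be told apart. None of the 49 other cytokinin genes tested was called.

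Likeness across the 18 ZAT libraries was measured as Pearson's r of log2(FPKM + 1) with each of 17157 genes, as a description over libraries that share DMSO groups and 1 scaling. Of the 8 tested members, ARR4 and ARR5 had another member as the most like gene. The gene most like ARR5 was ARR9 (r = 0.855, Spearman's rho = 0.853), and that most like ARR4 was ARR3 (0.790, 0.697). ARR8 was most like the type-B regulator ARR12 (0.862, 0.843). ARR15 was most like AT4G28840 (0.826, 0.843) and then ARR9 (0.825, 0.909), and AT4G28840 was also second for ARR5 (0.850) and for ARR8 (0.854). The nearest genes of ARR7 were AT4G34750 (0.752, 0.767), AT4G35200 (0.739, 0.639) and AT3G45400 (0.731, 0.645). The most like genes were AT1G59970 for ARR3 (0.901, 0.820), AT5G10990 for ARR6 (0.847, 0.839) and AT3G51730 for ARR9 (0.871, 0.767).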

How the data were processed

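Members and gene lists were chosen with earlier results of these data known. The 30 libraries were grouped by their titles. The deposited FPKM values were made by the authors per gene and library, with TopHat2, HTSeq and the build TAIR10 per the submitters' processing notes, which give no versions. Each FPKM is relative to its library, so it shifts when abundant genes change. Sorted cells have raw gene counts as deposited, made with featureCounts per the submitters' processing notes, which also name Bowtie2; that cDNA was amplified by PCR per the labels' protocols, so counts are not independent molecules.

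FPKM was tested with limma 3.58.1 in R 4.3.3 (trended eBayes) on log2(FPKM + 1), where 3 or more libraries reached 1 FPKM: the mutant table alone, and the ZAT table as 6 group means over 18 libraries. Fold changes are on that scale. Counts were tested with edgeR 4.0.16 (TMM, filterByExpr, quasi-likelihood). All tests were two-sided over the whole table, with Benjamini-Hochberg adjustment and a threshold of 0.05. The limma and edgeR fits were checked on simulated data for the mutant, ZAT14-like 10 h and PLT2 comparisons only. FPKM depth was estimated from low values as multiples of 1 read: 38.9 to 42.0% of those looked at were whole within 0.05 reads in the mutant table and 77.5 to 80.1% in the ZAT table, so FPKM was not turned into counts. Alternatives were a pseudocount of 0.1, no filter, median-ratio rescaling, a replicate block, the compared groups only, leaving out each library, DESeq2 1.42.0 (test and size factors) and library totals. All members passing the filter were tested in each comparison and are named, singly or in groups; of the other cytokinin genes, at most 4 called per list by adjusted p, and the genes most like each member by Pearson's r. Sequences and positions are from RefSeq's TAIR10.1, read with Biopython 1.88 under Python 3.11.15; figures used matplotlib 3.10.9.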

Additional observations from a re-analysis of the deposited data

Results flagged for a closer look

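The response of ARR7 to 10 h of induction differed between the lines by a test of the difference itself. It was 1.45 on the log2 scale (ZAT14-like minus ZAT14, limma adjusted p = 0.00585), with ARR7 above DMSO in 3 of 3 libraries of the ZAT14-like line and below DMSO in 3 of 3 of the ZAT14 line. It passed the threshold in 17 of 18 alternatives (1.35 to 2.17, adjusted p = 0.00203 to 0.0570).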

How the results depend on the processing

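Of the 90 pairs of member and comparison tested, 13 were called, of which 6 were called in every alternative that could be run: ARR6, ARR8 and ARR9 in the mutant and ARR7 for ZAT14-like at 10 h, and ARR7 and ARR16 in the mutant, which had to differ and could be tested in 7 of 10. No pair called in any setting changed sign; of the 64 called in none, 22 changed sign in at least 1. The number of members called for ZAT14 at 14 h was 0, but 1 with a pseudocount of 0.1 or the replicate block, and 2 with rescaling, the compared groups only or without the 3 libraries numbered 2. For ZAT14-like 14 h against 10 h it was 2, but 1 with no filter or rescaling and 0 with the compared groups only. For ZAT14-like at 14 h it was 3, but 2 with a pseudocount of 0.1 or the block (both without ARR15), 4 with the compared groups only and 1 without the libraries numbered 2, and for the difference at 10 h it was 1, but 0 without them. For ZAT14-like at 10 h it was 1, but 2 with the block, and for ZAT14 at 10 h it was 1, but 2 with the block, 0 with the compared groups only, and ARR3 in place of ARR7 without the libraries numbered 2. In sorted cells it was 0, but 1 (ARR4) with no filter, DESeq2 or the block. Leaving out 1 library gave 0 to 2 members for ZAT14-like at 14 h, 0 to 3 for ZAT14-like 14 h against 10 h, 0 to 3 for ZAT14 at 10 h, 0 to 2 for ZAT14 at 14 h, 0 to 1 for the difference at 10 h, 0 to 1 in sorted cells and 4 to 6 for the mutant. Over all genes it gave 1097 to 2071 calls for ZAT14-like at 14 h (2123 with all libraries), 343 to 748 for ZAT14 at 14 h (735), 678 to 2413 for ZAT14-like 14 h against 10 h (1485), 414 to 864 for ZAT14 14 h against 10 h (863), 18 to 42 for the difference at 10 h (31), 28 to 54 for that at 14 h (62) and 10 to 16 between DMSO lines (17). With the compared groups only, the difference at 10 h had 4, ZAT14 at 10 h 72 and ZAT14-like 14 h against 10 h 297.

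Replicate numbers did not meet the rule for pairing: same-numbered libraries correlated at -0.0918 to 0.0860 between 14 h and 10 h of ZAT14-like and at -0.0955 to 0.482 between the DMSO lines, and other comparisons shared 2 numbers. With the replicate block ARR3 (-0.41, adjusted p = 0.0154) and ARR15 (0.40, 0.0238) were also called in the mutant, ARR3 for ZAT14-like (-0.48, 0.0340) and ZAT14 (-0.77, 0.00674) at 10 h, ARR8 for ZAT14 at 14 h (-0.37, 0.0355) and ARR4 in sorted cells (-2.54, 0.0226), while ARR15 for ZAT14-like at 14 h was not (0.0957). Depth limits ARR7, ARR15, ARR16 and ARR17.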
